A study of Rattus norvegicus with 14 samples.

Results

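Connexins and pannexin 1 are the channel proteins through which cells exchange small molecules with each other or with the space around them, and 8 of their genes were looked for through postnatal development of the epididymis of the rat, where sperm mature and are stored. The genes were chosen by symbol in the array's annotation (Gja1, Gja4, Gja5, Gjb1, Gjb2, Gjb5, Gjc1 and Panx1), with the transcript cluster of highest mean where a gene had several. Gjc1 had no cluster of its own and was not analysed here. The other 7 genes had 1 cluster each, out of 18166 genes measured. The study measured pools of whole epididymides, from rats of the Sprague-Dawley strain, at day 7 (3 pools), day 18 (4 pools), day 28 (4 pools) and day 60 (3 pools), each on its own RatGene 2.0 ST array. The sample titles call the material rat epididymal cells. The labels name no genotype or treatment, and the number of animals in a pool is not given in them. Values are log2 signals, so a difference of 1 is a doubling. The p-values measure the spread between pools, which may be in part technical.

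Connexins assemble into hexamers in the membrane, and hexamers of neighbouring cells dock into a gap junction channel that passes ions, second messengers and metabolites. Pannexin 1 forms channels of a related fold that do not dock in most cells and that release ATP to the outside. In the epididymis gap junctions are known between the columnar cells of the epithelium and between columnar and basal cells, and connexins also couple the endothelium of vessels and the smooth muscle around the duct. The alpha connexins here are Gja1 (Cx43), found in many cell types, and Gja4 (Cx37) and Gja5 (Cx40), known from vascular endothelium. The beta connexins, Gjb1 (Cx32), Gjb2 (Cx26) and Gjb5 (Cx31.1), are known from epithelia.

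The starts of 3 alpha connexin genes are shown because Gja1 and Gja5 moved in opposite directions at every step and Gja4, which like Gja5 is known from endothelium, fell at day 28 where Gja5 rose. Each line holds 300 bases on the gene's own strand, 250 before and 50 after a start site taken from RefSeq, in the GRCr8 build. The lines are chr20:36302314-36302613 (plus strand) for Gja1, chr2:187290977-187291276 (plus strand) for Gja5 and chr5:144920275-144920574 (minus strand) for Gja4. The RefSeq gene Gja1 begins at 36302490, before the start site of its line, so that site is not the first base of the gene. Capitals mark matches, on either strand, to TATAAA, known from core promoters, to GGGCGG, the GC box bound by Sp factors, to CCAAT, bound by NF-Y, to TGTTCT, the core of an androgen receptor site, and to TGANTCA, bound by AP-1. The matches do not overlap.
Gja1: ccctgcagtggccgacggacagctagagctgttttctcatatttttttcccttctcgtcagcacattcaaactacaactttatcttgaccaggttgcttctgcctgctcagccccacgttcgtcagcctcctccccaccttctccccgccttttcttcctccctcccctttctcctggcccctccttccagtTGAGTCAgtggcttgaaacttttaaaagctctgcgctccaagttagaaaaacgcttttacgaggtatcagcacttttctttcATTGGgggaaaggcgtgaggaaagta
Gja5: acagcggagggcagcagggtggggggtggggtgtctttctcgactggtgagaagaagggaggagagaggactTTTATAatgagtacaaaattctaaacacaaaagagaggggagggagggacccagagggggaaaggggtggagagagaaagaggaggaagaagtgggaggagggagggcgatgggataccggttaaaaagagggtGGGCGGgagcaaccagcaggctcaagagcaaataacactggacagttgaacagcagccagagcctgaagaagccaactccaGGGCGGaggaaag
Gja4: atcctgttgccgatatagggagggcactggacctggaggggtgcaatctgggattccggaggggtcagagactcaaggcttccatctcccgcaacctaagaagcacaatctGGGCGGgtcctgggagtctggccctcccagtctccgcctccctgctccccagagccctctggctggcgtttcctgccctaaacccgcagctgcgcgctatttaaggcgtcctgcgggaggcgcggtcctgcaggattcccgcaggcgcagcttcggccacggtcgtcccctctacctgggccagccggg
The Gja1 start holds the letters TGAGTCA of an AP-1 match at position -58, counted from the start site, and a CCAAT match on the other strand at position 25. Both matches lie after the first base of the RefSeq gene. Of 33469 promoters of this length 7.33% hold an AP-1 match and 37.5% a CCAAT match. The Gja5 start holds GC box matches at -44 and 38 and a TATA match on the other strand at -178, and the Gja4 start 1 GC box match at -139. A GC box match is in 33.1% of all promoters and a TATA match in 14.2%. Of the 6 members with a promoter in the table, 4 hold a GC box match, 2 a CCAAT match, 1 a TATA match and 1 an AP-1 match. None holds TGTTCT, which 20.7% of all promoters do, and 6 promoters are too few to read a lack from this. RefSeq's table has no promoter of Gjb5. These matches describe letters and no binding was measured.

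Pools of the same age resembled each other closely, with correlations across genes of 0.989 to 0.995. The medians of single arrays were between 5.21 and 5.32, apart from day 28 replicate 2 with 5.42. A main axis with 62.8% of the variance put the pools in the order of their ages. All 6 general epithelial markers (Epcam, Cdh1, Krt8, Krt18, Krt19 and Cldn7) lay above background at every age. Of 6 principal cell markers 4 (Crisp1, Adam7, Rnase9 and Rnase10) lay below it at day 7 and none from day 18 on. The 6 haploid germ cell markers had a summed linear signal of 1609 to 2208 at day 60, against 147 to 181 at day 28. The 5 adipocyte markers had sums of 180 to 261 at day 7 and 368 to 952 at day 18. Their sums were 680 to 1319 at day 28 and 1355 to 1537 at day 60. The background level, 4.86, is the 95th percentile of the means of 226 olfactory and vomeronasal receptor genes.

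Each of the 7 genes differed among the 4 ages (limma's F test, adjusted p = 7.57e-09 for Gja5 to 0.00396 for Gjb1), where 60.4% of all genes did. Gja5, Gjb5 and Gjb1 were higher at day 60 than at day 7, and Gja1, Panx1, Gjb2 and Gja4 were lower. Between day 60 and day 7, 3 were called higher (21.7% of all genes), 4 lower (27.6% of all genes), and 7 in either direction (49.2% of all genes). The pools of these ages did not overlap for any of the 7 genes, nor for 57.8% of all genes. Gene by gene, the gap between the highest and the lowest age mean was 1.65 for Gja5, 1.23 for Gja1, 1.04 for Gjb5, 0.95 for Panx1, 0.81 for Gjb1, 0.76 for Gjb2 and 0.53 for Gja4, and the median over all genes was 0.46. In whole epididymis, fewer cells of a type and less RNA per cell cannot be told apart.

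**Figure D1:**
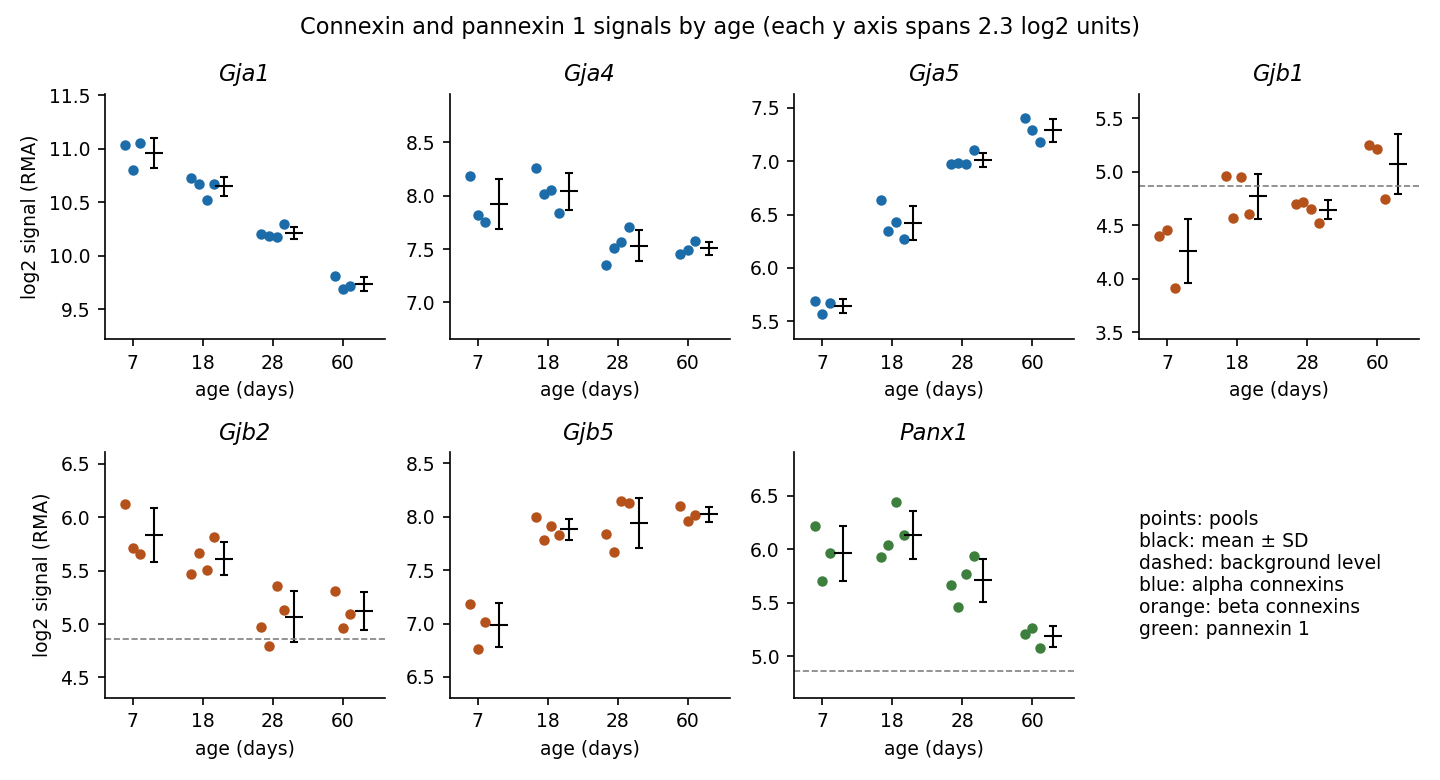
Log2 signal (y axis, a span of 2.3 in every panel) of each gene against age in days, with a point for each pool, the mean ± SD in black and the background level of 4.86 dashed where it lies in the panel. Gja1 steps down and Gja5 steps up at every age, Gjb5 is raised from day 18 on, and Gjb1 lies near the background level throughout.

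By step, 3 of the 7 genes were called higher (17.4% of all genes) and 1 lower (20.7% of all genes) at day 18 against day 7, where 38.1% of all genes were called in either direction. At day 28 against day 18, 1 was higher (10.5%) and 4 were lower (14.3%), against 24.7% of all genes in either direction. Between day 60 and day 28, 1 was higher (13.8%) and 2 were lower (11.2%), against 25.0%. In each of these steps the pools of 4 of the 7 genes did not overlap, as was so for 45.1%, 26.5% and 31.4% of all genes. The median difference of the 7 genes was 0.17, -0.43 and 0.06 in these comparisons and -0.41 at day 60 against day 7, and that of all genes was 0.01, -0.02, -0.02 and -0.03. Neighbouring comparisons share the pools of the age between them. With each array centred on its median, higher calls made up 31.7% of the calls in place of 42.3% at day 28 against day 18, and 71.7% in place of 55.2% at day 60 against day 28.

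**Figure D2:**
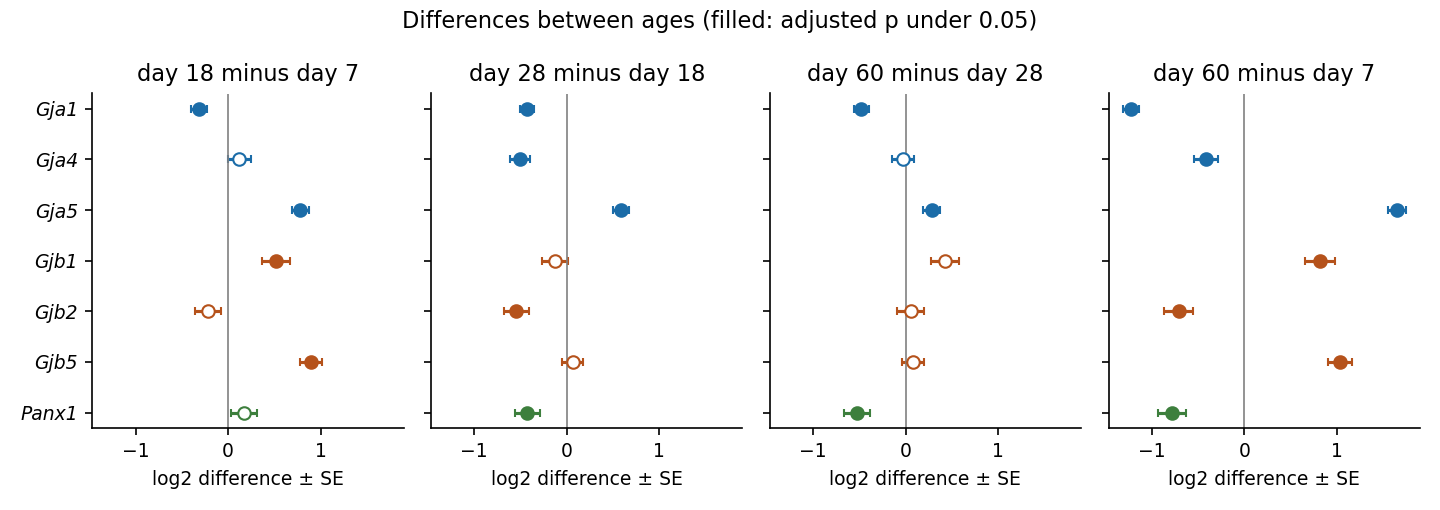
Log2 difference, later minus earlier age, with its SE (x axis) for each gene in each comparison, filled where the adjusted p was under 0.05 and open where it was not. At day 28 against day 18 Gja1, Gja4, Gjb2 and Panx1 lie to the left of 0 and Gja5 lies to the right.

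Gja1 encodes Cx43, the most widely expressed connexin of mammals, found in epithelial, smooth muscle and stromal cells. Its signal was 11.04, 10.80 and 11.05 in the day 7 pools, 10.73, 10.67, 10.52 and 10.67 at day 18, 10.21, 10.18, 10.17 and 10.30 at day 28, and 9.81, 9.68 and 9.71 at day 60. Every pool of an age lay below every pool of the age before it. Gja1 fell by 0.31 ± 0.081 at day 18 against day 7 (log2 difference ± SE, adjusted p = 0.00638), by 0.43 ± 0.075 at day 28 against day 18 (adjusted p = 0.000644) and by 0.48 ± 0.081 at day 60 against day 28 (adjusted p = 0.000611). Over the whole span it averaged 9.74 ± 0.063 at day 60 and 10.96 ± 0.14 at day 7 (SD, n = 3 each), 2.34-fold lower at day 60 (limma adjusted p = 1.68e-08). Such a fall, called at each of the 3 steps, was found in 255 genes (1.4%).

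Fibroblast and mesenchyme markers moved with Gja1 at 2 of the steps. At day 18 against day 7 all 6 (Col1a1, Col1a2, Pdgfra, Dcn, Lum and Postn) fell, and at day 60 against day 28, 4 fell and 1 rose. Their summed linear signal was 28477 to 30435 in the day 7 pools, 18796 to 20303 in the day 18 pools, 19550 to 21898 in the day 28 pools and 17572 to 18121 in the day 60 pools. The day 28 and day 18 sums overlap, where Gja1 stepped down. Of 7 smooth muscle markers 0 rose and 4 fell at day 18 against day 7 (sums of 5423 to 6845 at day 18 and 7433 to 9605 at day 7), in the direction of Gja1. At day 28 against day 18, 6 rose and 0 fell (sums of 8462 to 10422 at day 28), against the direction of Gja1, and 0 were called at day 60 against day 28. General epithelial markers went against Gja1 at day 18 against day 7, where all 6 rose. They went with it later: 3 fell and 0 rose at day 28 against day 18, and 2 fell and 0 rose at day 60 against day 28. The part of these cell types in the fall of Gja1 was not tested.

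Gja5 and Gja4, both known as connexins of endothelium and, for Gja5, of arteries and the conducting heart, ran in opposite directions over the whole span. Gja5 had 5.69, 5.57 and 5.68 at day 7, 6.64, 6.35, 6.43 and 6.27 at day 18, 6.97, 6.98, 6.97 and 7.11 at day 28, and 7.40, 7.29 and 7.18 at day 60. The pools of each age lay above all pools of the age before. Gja5 rose by 0.78 ± 0.091 at day 18 against day 7 (adjusted p = 7.86e-06), by 0.58 ± 0.085 at day 28 against day 18 (adjusted p = 0.000134) and by 0.28 ± 0.091 at day 60 against day 28 (adjusted p = 0.0349). A rise called at each of the 3 steps was found in 321 genes (1.77%). At day 60 Gja5 averaged 7.29 ± 0.11, against 5.64 ± 0.069 at day 7 (SD, n = 3 each), a 3.13-fold rise (adjusted p = 2.39e-09).

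The last step of Gja5 rests on a small margin. Its adjusted p was 0.0704 without day 28 replicate 1, 0.0575 without day 28 replicate 2, 0.0745 without day 28 replicate 3, 0.137 without day 60 replicate 1 and 0.0825 without day 60 replicate 2, with log2 differences of 0.23 to 0.28 in these fits. With all pools kept it was 0.0551 after a further quantile normalization, 0.0664 with every transcript cluster tested, 0.0569 with the pools of day 60 and day 28 alone and 0.0625 with the replicate number as a block. The other steps of Gja5 kept their calls in every alternative in which the gene was tested.

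Gja4 had 8.19, 7.82 and 7.75 at day 7, 8.26, 8.01, 8.05 and 7.83 at day 18, 7.35, 7.51, 7.57 and 7.71 at day 28, and 7.46, 7.49 and 7.57 at day 60. The day 7 and day 18 pools overlapped, as did the day 28 and day 60 pools, and the earlier pair of ages lay above the later pair. The gene fell by 0.51 ± 0.11 at day 28 against day 18 (adjusted p = 0.00391). Its differences of 0.12 ± 0.12 at day 18 against day 7 (adjusted p = 0.477) and -0.02 ± 0.12 at day 60 against day 28 (adjusted p = 0.909) did not pass, and the second turned positive (0.04) with arrays centred on their medians. It averaged 7.51 ± 0.061 at day 60 and 7.92 ± 0.23 at day 7, 1.33-fold lower (adjusted p = 0.0154). Without day 7 replicate 1, its highest pool at that age, the difference was -0.28 (adjusted p = 0.091).

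Endothelial markers moved with each gene in some comparisons and against it in others. Of 5 measured (Cdh5, Tie1, Tek, Flt1 and Emcn), 4 fell at day 18 against day 7, 3 rose at day 28 against day 18 and 0 were called at day 60 against day 28. Over the whole span 1 was higher and 2 were lower. Their summed linear signal was 983 to 1056 in the day 7 pools, 571 to 624 in the day 18 pools, 706 to 767 in the day 28 pools and 797 to 834 in the day 60 pools. From day 18 on this sum and Gja5 were each higher at every later age, and at day 18 against day 7 the sum was lower while Gja5 rose. Gja4 and the sum were both lower at day 60 than at day 7, and at day 28 against day 18 the sum was higher while Gja4 fell.

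Of 6 arterial markers, 3 rose and 1 fell at day 18 against day 7, the step of the largest rise of Gja5, with sums of 2569 to 2911 at day 18 and 2308 to 2358 at day 7. Dll4, a Notch ligand, was higher by 0.76 and Efnb2, a membrane ligand of arterial endothelium and of other cells, by 0.31. Sox17, the 1 that fell, was lower by 0.78 ± 0.10. The sum comes mostly from Efnb2 and Nrp1, the highest of the 6 (means of 10.04 and 10.39 at day 18). In the step in which Gja4 fell, day 28 against day 18, 0 rose and 2 fell (sums of 1541 to 1706 at day 28): Efnb2 fell by 1.07 ± 0.077 and Nrp1, a co-receptor of VEGF, by 0.69 ± 0.074. Both fell again at day 60 against day 28, Efnb2 by 1.14 and Nrp1 by 0.56, where Gja4 did not pass. Of the 6 only Sox17 rose, by 0.35 (sums of 1097 to 1121 at day 60). Over the whole span 1 of the 6 was higher and 3 were lower. Gja5 rose in both later steps and over the whole span, against the direction of most of the called arterial markers. Bmx lay below background at every age. Markers of principal cells, basal cells and adipocytes moved with Gja5 where they were called. At day 18 against day 7, 6 of 6 principal, 3 of 4 basal and 4 of 5 adipocyte markers rose. At day 28 against day 18, 6, 2 and 2 did. At day 60 against day 28, 2, 0 and 2 rose, and 0 fell in any of these steps. The part of vessels, of these epithelial cells and of adipocytes in the results was not tested.

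Among the beta connexins Gjb5, which encodes Cx31.1 of stratified and other epithelia, made its rise in a single step. It had 7.18, 6.76 and 7.02 in the day 7 pools, 8.0, 7.79, 7.91 and 7.82 at day 18, 7.84, 7.67, 8.15 and 8.13 at day 28, and 8.10, 7.96 and 8.01 at day 60. The day 7 pools lay below all others and the 3 later ages overlapped. Gjb5 rose by 0.89 ± 0.12 at day 18 against day 7, a 1.86-fold rise (adjusted p = 3.66e-05). The next differences were 0.06 ± 0.11 at day 28 against day 18 (adjusted p = 0.741) and 0.08 ± 0.12 at day 60 against day 28 (adjusted p = 0.686). At day 60 it averaged 8.02 ± 0.070, against 6.99 ± 0.21 at day 7, 2.05-fold higher (adjusted p = 8.89e-06).

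All 6 general epithelial markers rose at day 18 against day 7 as well. So did 3 of 4 measured basal cell markers (Tp63, Krt14 and Krt15, with list sums of 667 to 783 at day 18 and 391 to 401 at day 7). In the same step 6 of 6 principal cell, 4 of 5 clear and narrow cell and 4 of 5 adipocyte markers rose, and 0 of these fell. The part of these cell types in the rise of Gjb5 was not tested. The summed epithelial signal was 6876 to 7331 at day 18 and 3969 to 4491 at day 7. It was lower again at day 28 (5214 to 5454) and day 60 (4654 to 4935), while Gjb5 stayed within its day 18 range or above it in all but 1 later pool.

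Gjb2 encodes Cx26 and Gjb1 Cx32, which can share channels in epithelia such as liver. In rat epididymis Cx26 is known from the young epithelium and Cx32 from the older one. Gjb2 had 6.12, 5.71 and 5.66 at day 7, 5.47, 5.66, 5.51 and 5.81 at day 18, 4.98, 4.80, 5.36 and 5.13 at day 28, and 5.31, 4.96 and 5.09 at day 60. Day 7 overlapped day 18, day 28 overlapped day 60, and no pool of the later pair reached the earlier pair. Gjb2 fell by 0.55 ± 0.13 at day 28 against day 18 (adjusted p = 0.00809), and its differences of -0.22 ± 0.15 at day 18 against day 7 (adjusted p = 0.270) and 0.06 ± 0.15 at day 60 against day 28 (adjusted p = 0.825) did not pass. It averaged 5.12 ± 0.18 at day 60 and 5.83 ± 0.25 at day 7, 1.64-fold lower (adjusted p = 0.00134). Its later means lay just above the background level, so the size of this fall is uncertain.

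Gjb1 had 4.40, 4.45 and 3.91 at day 7, 4.96, 4.57, 4.95 and 4.61 at day 18, 4.69, 4.72, 4.65 and 4.52 at day 28, and 5.25, 5.21 and 4.74 at day 60. Only 2 pools of day 18 and 2 of day 60 exceeded the background level of 4.86, so its fold changes are uncertain however small their error. The gene rose by 0.52 ± 0.15 at day 18 against day 7 (adjusted p = 0.0149), a call that ended without day 7 replicate 3, its lowest pool (0.34, adjusted p = 0.0973). The difference was -0.13 ± 0.14 at day 28 against day 18 (adjusted p = 0.573). At day 60 against day 28 it was 0.42 ± 0.15 (adjusted p = 0.0577), with no overlap of the pools, and this passed without day 60 replicate 3 (0.59, adjusted p = 0.017) and without day 7 replicate 3 (adjusted p = 0.0325). With all pools kept it passed after a further quantile normalization (adjusted p = 0.0295), with centred arrays (adjusted p = 0.0299) and with the pools of day 60 and day 28 alone (adjusted p = 0.0478). The mean was 5.07 ± 0.28 at day 60 and 4.25 ± 0.30 at day 7, a log2 difference of 0.81 ± 0.16 (adjusted p = 0.000677).

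Taking Gjb1 minus Gjb2 within each array removes what an array's scaling shares between the genes. This value was -1.58 ± 0.28 in the day 7 pools, -0.84 ± 0.36 in the day 18 pools, -0.42 ± 0.29 in the day 28 pools and -0.05 ± 0.30 in the day 60 pools (mean ± SD, 3, 4, 4 and 3 pools). All day 60 pools (-0.35 to 0.25) and all day 18 pools (-1.20 to -0.51) lay above all day 7 pools (-1.75 to -1.26), and the other neighbouring ages overlapped. The change was 1.52 for day 60 against day 7 (exact two-sided permutation p = 0.1, the smallest that 3 against 3 allow) and 0.73 for day 18 against day 7 (exact p = 0.0571, the smallest that 4 against 3 allow). It was 0.42 for day 28 against day 18 (exact p = 0.171) and 0.37 for day 60 against day 28 (exact p = 0.229). With these numbers of pools none of the 4 could pass 0.05 after adjustment over them, so the adjusted values (0.2 to 0.229) say nothing for or against a change. The value sets the changes of the genes against each other and not their levels, and Gjb1 lay below background in most pools.

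**Figure D3:**
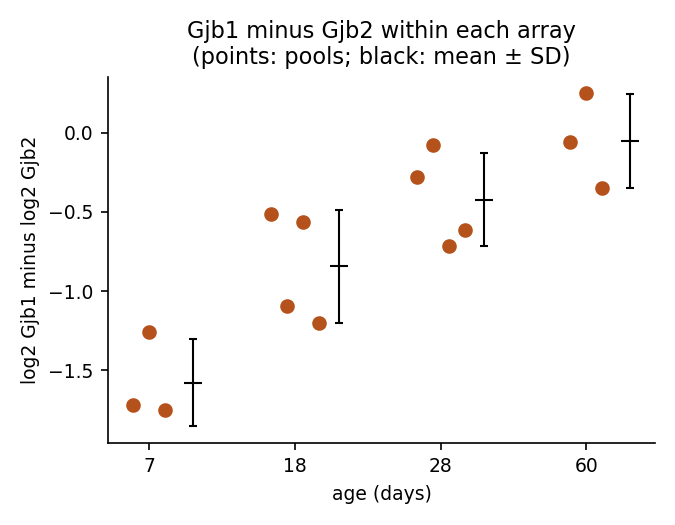
Log2 signal of Gjb1 minus that of Gjb2 in each array (y axis) against age in days, with a point for each pool and the mean ± SD in black. The means run from -1.58 at day 7 to -0.05 at day 60 and the pools of neighbouring ages overlap from day 18 on.

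Panx1 encodes pannexin 1, which opens a path for ATP out of the cell. It had 6.22, 5.70 and 5.97 at day 7, 5.93, 6.04, 6.45 and 6.14 at day 18, 5.67, 5.46, 5.77 and 5.94 at day 28, and 5.21, 5.27 and 5.07 at day 60. The day 60 pools lay below all others, and each of the earlier ages overlapped the next. The difference was 0.17 ± 0.14 at day 18 against day 7 (adjusted p = 0.384). Panx1 fell by 0.43 ± 0.13 at day 28 against day 18 (adjusted p = 0.0293) and by 0.52 ± 0.14 at day 60 against day 28 (adjusted p = 0.0153). It averaged 5.18 ± 0.099 at day 60 and 5.96 ± 0.26 at day 7, 1.72-fold lower (adjusted p = 0.000567).

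The fall of Panx1 at day 28 against day 18 rests on a small margin. Its adjusted p was 0.0558 with array weights and 0.0633 with every transcript cluster tested. It was 0.0891 without day 18 replicate 3, 0.058 without day 18 replicate 4, 0.0606 without day 28 replicate 1 and 0.0904 without day 28 replicate 2. The fall to day 60 had an adjusted p of 0.0655 without day 60 replicate 3. The whole-span difference of Panx1 kept its call without any of the 14 pools.

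Of the other connexin and pannexin genes 11 of 15 had a cluster of their own, and 5 of these (Gjb6, Gjc3, Gjd2, Gjd3 and Panx2) exceeded background at some age. At day 18 against day 7, 2 rose and 0 fell. Panx2, a pannexin known mainly from the nervous system, rose by 0.58 ± 0.12 (adjusted p = 0.00182) and Gjb6, Cx30, by 0.60 ± 0.12 (adjusted p = 0.00137) from a day 7 mean of 4.37, below background. At day 28 against day 18, 0 of the 11 were called, and at day 60 against day 28 only Gja3 was, which lay below background at every age. Panx2 was higher at day 60 against day 7 by 0.85 ± 0.13 (adjusted p = 7.47e-05), with means of 7.95 ± 0.16 at day 60 and 7.10 ± 0.31 at day 7, while Panx1 was lower. In that comparison Gjb6 was higher by 0.49 ± 0.13 (adjusted p = 0.0066), with both means below background. Gja3 was lower by 0.32 ± 0.086 (adjusted p = 0.00605).

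Among genes whose products anchor or regulate connexins, 8 of 22 measured rose and 8 fell at day 18 against day 7, with a median difference of 0.11. Of all genes 17.4% rose and 20.7% fell in that comparison, with a median of 0.01. Cav2, a caveolin, rose by 0.89 ± 0.076 and Ezr, ezrin of microvilli, by 0.87 ± 0.076. Cdh2, N-cadherin, fell by 1.67 ± 0.17 and Ccn3, a matricellular protein that binds Cx43, by 1.31 ± 0.12. At day 28 against day 18, 0 rose and 6 fell (10.5% and 14.3% of all genes; medians of -0.08 for the list and -0.02 for all genes), among them Ubqln4 (fell by 0.57 ± 0.081) and Cav2 (fell by 0.42 ± 0.070). At day 60 against day 28, 1 rose and 7 fell (13.8% and 11.2% of all genes; medians of -0.14 for the list and -0.02 for all genes), with Ccn3 higher by 0.51 ± 0.12, and differences of -0.47 ± 0.076 for Cav2 and -0.47 ± 0.071 for Ctnnb1, beta-catenin.

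Over the whole span 5 of the 22 rose and 10 fell, against 21.7% and 27.6% of all genes, with a median difference of -0.11 in the list and -0.03 over all genes. Tjp3, a scaffold of tight junctions, rose by 0.87 ± 0.098 and Ezr by 0.56 ± 0.081. Cdh2 fell by 1.92 ± 0.18 and Dbn1, drebrin, an actin-binding protein that holds Cx43 at the membrane, by 1.53 ± 0.10, in the same direction as Gja1. Tjp1, the ZO-1 scaffold that binds the tail of Cx43, was also lower (difference -0.52 ± 0.069, adjusted p = 1.4e-05). Cdh1, E-cadherin of epithelia, was higher by 0.30 ± 0.078 (adjusted p = 0.0045).

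A further list holds receptors for extracellular ATP, other nucleotides and adenosine, and related enzymes, not all of which act on ATP. Of its 27 measured genes 14 rose and 4 fell at day 60 against day 7, where Panx1 fell. Of all genes 21.7% rose and 27.6% fell, and the median difference was 0.63 in the list and -0.03 over all genes. The receptor channel genes P2rx2 and P2rx3 rose by 2.37 ± 0.18 and 2.33 ± 0.14 and fell in no step. Enpp2, the lysophospholipase autotaxin, fell by 1.02 ± 0.10 and Entpd2, an enzyme that removes phosphate from ATP, by 0.58 ± 0.079.

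By step, 9 of the 27 rose and 4 fell at day 18 against day 7 (17.4% and 20.7% of all genes; medians of 0.21 for the list and 0.01 for all genes). P2ry14, a receptor for UDP-glucose, rose by 2.26 ± 0.19 from a day 7 mean of 4.05, below background, and P2rx2 rose by 1.44 ± 0.16. Enpp2 fell by 1.33 ± 0.094 and Enpp3 by 1.10 ± 0.12. At day 28 against day 18, 6 rose and 2 fell (10.5% and 14.3% of all genes; medians of 0.04 for the list and -0.02 for all genes). The ectoenzymes Enpp1 and Nt5e, which make AMP and adenosine outside the cell, rose by 0.87 ± 0.070 and 0.70 ± 0.085, and the receptors P2ry14 and P2ry13 fell by 0.71 ± 0.17 and 0.38 ± 0.090.

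In the last step, day 60 against day 28, 11 of the 27 rose and 0 fell (13.8% and 11.2% of all genes; medians of 0.28 for the list and -0.02 for all genes), with P2rx1 higher by 1.61 ± 0.16 and P2rx3 by 1.36 ± 0.13. P2rx1, a channel that mediates contraction of the vas deferens, had 5.11 ± 0.21 in the day 7 pools, 5.52 ± 0.25 in the day 18 pools, 5.79 ± 0.23 in the day 28 pools and 7.40 ± 0.22 in the day 60 pools. P2rx4 had 7.64 ± 0.18, 8.07 ± 0.050, 8.27 ± 0.15 and 8.80 ± 0.037 at these ages. Of the 7 P2X genes, P2rx6 and P2rx7 were called in no comparison. In the same step 5 of 6 haploid germ cell markers and 4 of 6 macrophage markers rose (macrophage sums of 1725 to 1868 at day 60 and 1289 to 1426 at day 28), and 0 of 7 smooth muscle markers did. The part of germ cells and macrophages was not tested.

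**Figure D4:**
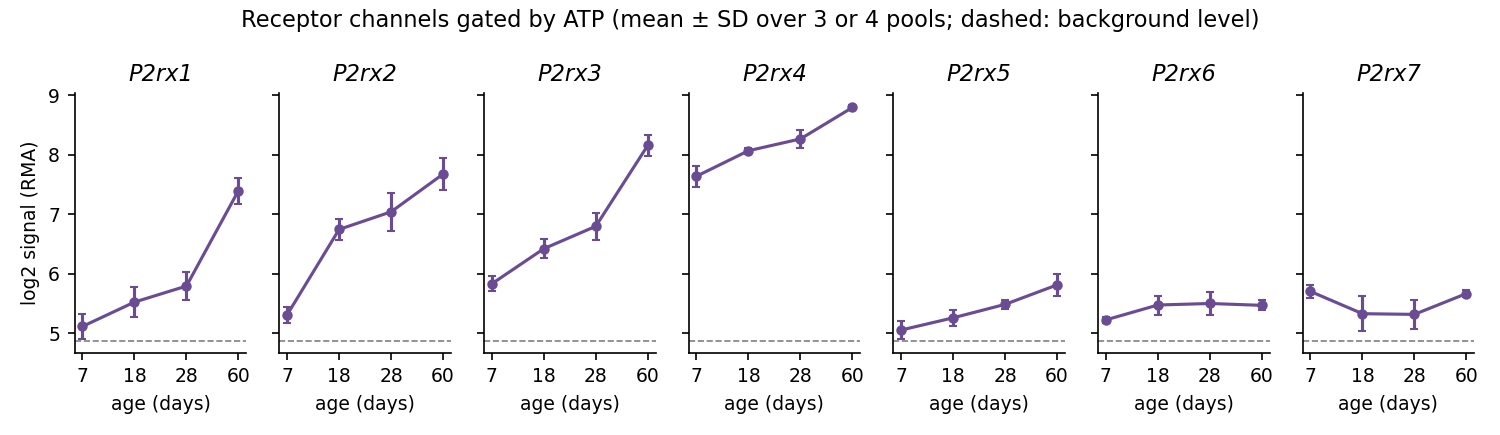
Mean log2 signal ± SD (y axis) of the 7 P2X receptor genes against age in days, with the background level dashed. The genes have separate probes, so heights compare ages within a gene and not genes with each other. P2rx1 rises mostly between day 28 and day 60, P2rx2 mostly between day 7 and day 18.

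Across the 14 pools, which differ mainly in age, the genes that rose over the whole span correlated positively with each other and negatively with those that fell, to very different degrees. Gja1 correlated with Panx1 at 0.80, with Gjb2 at 0.80 and with Gja4 at 0.74, and with Gja5 at -0.92. Gja5 correlated with Gjb5 at 0.87 and with Gjb1 at 0.72. The weakest values were -0.21 for Gja4 and Gjb1, -0.24 for Gjb5 and Panx1, -0.26 for Gja4 and Gjb5 and -0.43 for Gjb1 and Panx1. The genes of the whole table most like Gja1 were Rpl10a, Heph and Ddah1, each with Pearson's r of 0.988. Those most like Gja5 were Fam83e, Ces2c and Krt15, the last a basal cell marker here, each with 0.988. So many genes follow age that 811 correlated with Gja1 and 865 with Gja5 above 0.9.

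Fewer genes resembled the others. The genes most like Gjb5 were Esrp1 (r = 0.968), Tjp3 (0.966) and Tmem267 (0.964), and 390 genes exceeded 0.9. Those most like Gjb2 were Pacsin2 (0.953), Dcaf1 (0.949) and Zscan20 (0.939), and those most like Panx1 were Eftud2 (0.946), C3h11orf96 (0.938) and Pwp2 (0.936), with 38 and 28 genes above 0.9. Gja4 was nearest to Ppp4c (0.901), Kiaa0040 (0.899) and Camkmt (0.896), and Gjb1 to Mcoln1 (0.872), Nlrp1a (0.871) and Lpin1 (0.870), with 1 and 0 genes above 0.9. All points are 14 pools of 4 ages on arrays normalized together.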

How the data were processed

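RNA of 14 pools of whole rat epididymides, treated with DNase, was amplified and converted to biotin-labelled cDNA, per the labels' protocols. The deposited values are log2 signals per transcript cluster. RMA, which corrects, quantile-normalizes and summarizes probe signals, and the Transcriptome Analysis Console are named without versions, per the submitters' processing notes. The settings and the annotation version are not given in the sources used here.

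Of 36685 clusters, 18511 had 1 symbol, 575 several and 17599 were not listed, and 18394 matched RefSeq by identifier. For 291 genes the cluster of highest mean was kept, which gave 18166 genes with no filter on low values. With receptor symbols that start with Or included, the background level is 4.92. Using limma 3.58.1 (R 4.3.3), 1 mean per age was estimated from the 14 arrays together (lmFit, then eBayes without a trend), and p-values were adjusted over all genes by Benjamini-Hochberg with a threshold of 0.05. Errors of levels are SDs and errors of differences are SEs. The number of pools limits the precision. Gjb1 minus Gjb2 was tested with exact permutations. The fit was tested on simulated data.

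The members and lists were chosen with earlier results of these data known. In the lists of other connexins and pannexins, of connexin partners and of nucleotide and adenosine receptors and enzymes, the 2 largest called rises and falls per comparison are named. The cell type markers were not named by this rule. Other genes (Tjp1, Cdh1, Efnb2, Nrp1, Dll4, Sox17, Bmx, P2rx4, P2rx6, P2rx7) were singled out after their values were seen. Likeness is the highest Pearson correlation over the pools. The fit was repeated after a further quantile normalization, on arrays centred on their medians, on genes from the median level up, with a trend and robust settings, on the compared ages alone, with replicate number as a block, with array weights, on averaged clusters, on all clusters, and without each pool in turn.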

Additional observations from a re-analysis of the deposited data

Results flagged for a closer look

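The Gja5 signal of day 28 replicate 4, 7.11, stood apart from the other day 28 pools, which lay between 6.97 and 6.98: the gap to its neighbour was 0.896 of the range of the age, above Dixon's 95% critical value for 4 samples. It was the only value to do so among 14 groups of 4 pools examined (7 genes at day 18 and day 28), and chance flags about 1 in 20 such groups. The range of these 4 pools was 0.14.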

How the results depend on the processing

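The whole-span calls of the 7 genes kept their direction and side of the threshold under every alternative that tested them, except Gja4 without day 7 replicate 1. Among only the genes at or above the median level, where 3 of the 7 genes are not tested, 2 in place of 4 were lower at day 28 against day 18, 1 in place of 2 at day 60 against day 28, 2 in place of 4 at day 60 against day 7, and 4 in place of 7 passed the F test. At day 60 against day 28 the count of higher genes, 1, became 2 with centred arrays and 0 with every cluster tested or with the replicate block, and ran from 0 to 2 as pools were left out, while the lower count ran from 1 to 2. After a further quantile normalization and with the compared ages alone the 1 higher gene was Gjb1 in place of Gja5. With centred arrays 1104 in place of 2039 genes of the whole table were lower in that comparison. Differences that did not pass changed sign at day 60 against day 28 for Gja4 (0.0419 centred, -0.086 to 0.0331 without a pool), Gjb2 (-0.0562 with array weights, -0.0392 to 0.153 without a pool) and Gjb5 (-0.0106 with array weights, -0.0121 to 0.148 without a pool), and at day 28 against day 18 for Gjb5 (-0.00526 to 0.155 without a pool). The causes were not tested. The replicate numbers do not pair the pools (r of -0.143 to 0.0456 over 19 same-numbered pairs; 9 of 38 matches were best with the own number), and as a block they changed no count of members beyond the one given. Signals near 4.86 limit Gjb1 and Gjb2.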
